A study of Rattus norvegicus with 46 samples.

Results

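Oleate and palmitate, the commonest unsaturated and saturated fatty acids of the diet, were set directly against each other in cultured heart muscle cells. The comparison takes the 8 arrays labelled oleate and the 8 labelled palmitate, 16 of the 46 arrays of the series, chosen by their labels alone. Palmitate differs from oleate both in its shorter chain and in having no double bond, so a difference between them cannot be assigned to either feature. All cells were cardiomyocytes from adult, male, wild-type Wistar rats. After isolation they were kept overnight in medium without serum on laminin-coated plates and then received 0.4 mM of 1 fatty acid for 24 h. Each fatty acid was bound to defatted bovine serum albumin (BSA), 1% in the medium, and 7 control arrays came from cells given 1% BSA alone. For reference the text also uses 8 arrays of cells given stearate, saturated and as long as oleate, and 7 of cells given linoleate, which has 1 double bond more than oleate. The model is isolated cells in culture, and nothing in the labels says that the arrays of a group stem from different animals or dishes. The p-values therefore cover the scatter among these arrays alone, and that scatter could be technical.

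Long-chain fatty acids are the main fuel of the heart and also activate PPAR nuclear receptors, which switch on genes of fatty acid oxidation and storage. Saturated fatty acids in excess are known to load cell membranes, including that of the endoplasmic reticulum, where secreted and membrane proteins are folded. Disturbed folding there starts the unfolded protein response, in which the sensors IRE1 and ATF6 raise chaperones and the sensor PERK slows translation. The same slowing, through phosphorylation of the initiation factor eIF2, raises the transcription factors ATF4 and CHOP and with them genes of amino acid supply. Oleate is the fatty acid most often used as the tolerated counterpart of palmitate.

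Levels are given as normalized log2 intensities, on which 1 unit is a doubling. They compare arrays for 1 gene and not genes with each other. The oleate arrays detected 3866 to 7446 of the 22517 probes, and the palmitate arrays 5216 to 7011. Detected probes averaged 5785 ± 1291 (SD, n = 8) with oleate and 5844 ± 695 (SD, n = 8) with palmitate. Of the 3 array measures compared (detected probes, median signal and signal range) none passed a two-sided exact permutation test (adjusted p = 0.969 for each). The summed linear intensity of 15 tested cardiomyocyte markers ran from 207000 to 280000 with oleate and from 203000 to 273000 with palmitate. With control it ran from 252000 to 304000. Of the 15 markers 0 passed the test between oleate and palmitate.

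The arrays numbered 4 stood apart. The hypoxia-responsive gene Ankrd37, picked for this description after its values were seen, was at 12.39 in oleate array 4 against 5.99 to 7.49 in the other oleate arrays. In palmitate array 4 it was at 12.36, against 8.13 to 10.97 in the other palmitate arrays. Adm, the hypoxia-inducible peptide adrenomedullin, was at 11.61 in oleate array 4 and 12.01 in palmitate array 4, above all other arrays of both groups. Palmitate array 7 came next, with Ankrd37 at 10.97 and Adm at 9.69, while oleate array 7 was at 7.45 and 6.30. Leaving out the arrays numbered 4 keeps this imbalance. Of 13 tested hypoxia genes, 12 were highest in array 4 among the oleate arrays and 13 among the palmitate arrays. Why these arrays stand apart was not tested, and the main counts are also given without the arrays numbered 4, an alternative added once their values were known.

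Between oleate and palmitate 321 of 7182 genes passed the test (4.47%; limma, adjusted p under 0.05), 83 higher (1.16%) and 238 lower with oleate (3.31%). At least 2-fold differences made up 146 of them (2.03%), 27 higher and 119 lower with oleate. The median difference over all tested genes was 0.03. The median 95% interval of a gene reached 0.46 to either side, and the number of arrays limits this precision. Without the arrays numbered 4, 624 genes passed (8.69%), 239 higher (3.33%) and 385 lower (5.36%), and 320 of the 321 genes were among them, all in the same direction. Leaving out oleate array 4 alone gave 698. Without the arrays numbered 4 and 7 the count was 413, 131 higher and 282 lower. With arrays scaled to a common median over all probes 78 genes passed, 10 higher and 68 lower, so the share of higher genes depends on the scaling. Some named genes were above background in part of the dimmer group alone, and there a difference is given with no fold. With oleate Nabp1 was detected in 3 arrays, Trib3 in 4, Creld2 in 5, and Dnajb9, Fosl1, Tmem39a, Sgk1, Cars1 and Gclc in 6 of 8. With palmitate Adap2 was detected in 1 array, Lpcat1, Ucp3 and Smtn in 2, Lyplal1 and Plin5 in 3, and Gpr22 and Pik3ip1 in 5.

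The control arrays show where the levels under each fatty acid lay. Both use the same 7 control arrays, and each shares 8 arrays with the direct comparison, so their values are given side by side and not tested against each other. Against control 795 genes passed with palmitate (11.1%), 381 higher (5.3%) and 414 lower (5.76%). With oleate 41 passed (0.571%), 37 higher (0.515%) and 4 lower (0.0557%). The 238 genes lower with oleate had a median difference from control of -0.04 with oleate and 0.97 with palmitate. Of these genes 191 were past the test against control with palmitate, all higher, and 0 with oleate. For the 83 genes higher with oleate the medians were 0.00255 with oleate and -0.83 with palmitate. Here 66 passed against control with palmitate, 64 of them lower, and 5 with oleate, 3 of them with both. In all 8 arrays of one group the level lay beyond all 8 of the other for 33 genes (0.459% of those tested), 31 with palmitate above (0.432%) and 2 with oleate above (0.0278%). In the group with the lower level 0 arrays detected the gene for 6 of the 238 genes and 3 of the 83, and 7 and 6 carry placeholder symbols and are not named. Without the arrays numbered 4 the groups did not overlap for 208 genes (2.9%), 151 with palmitate above and 57 with oleate above.

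**Figure D1:**
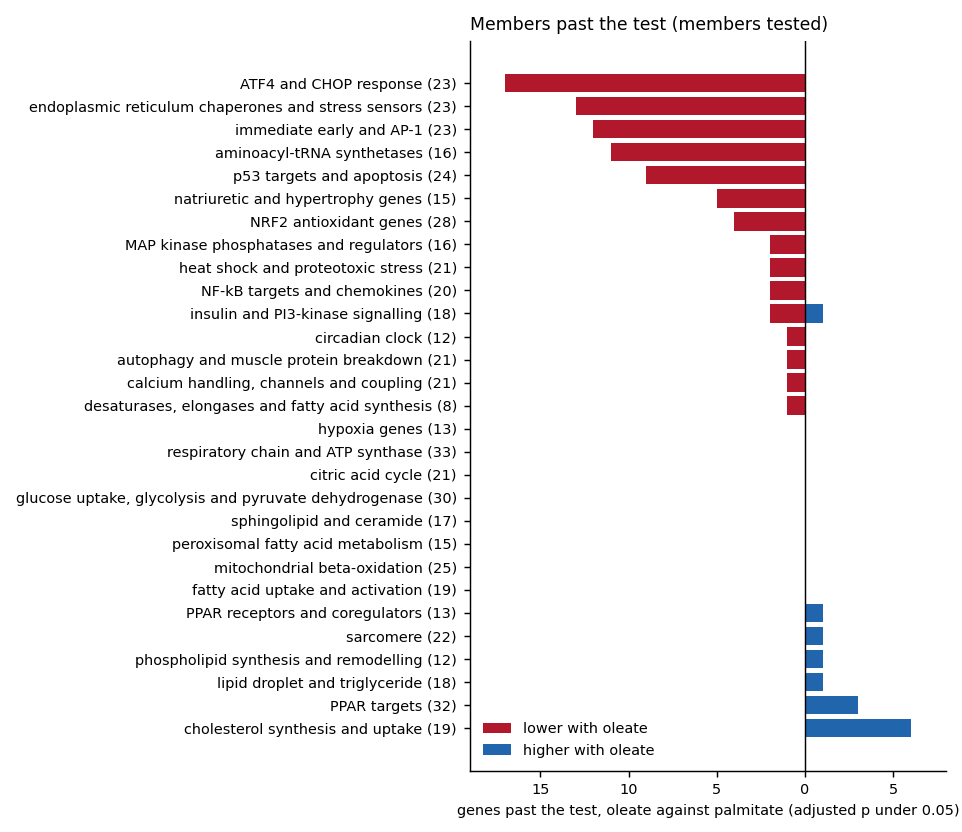
Number of genes past the test between oleate and palmitate in each of 29 gene lists (horizontal axis, count), lower with oleate in red to the left and higher in blue to the right, with the number of tested members in brackets. The longest bars are the 17 of 23 genes of the ATF4 and CHOP response and the 13 of 23 endoplasmic reticulum genes to the left, and the 6 of 19 cholesterol genes to the right.

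Genes of endoplasmic reticulum folding were lower with oleate than with palmitate. Of 23 tested members of that list 13 passed, all lower with oleate, against 3.31% of all genes in that direction, and the list's median difference was -0.82 beside 0.03 over all genes. The called members ran from -2.91 to -0.71. With median scaling 5 members passed, and without the arrays numbered 4 there were 15, all lower, beside 5.36% of all genes.

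Hspa5 encodes BiP, the main chaperone of the endoplasmic reticulum, which also holds the stress sensors inactive. Its level was 12.01 to 13.73 (median 12.31) with oleate and 13.72 to 14.57 (median 14.34) with palmitate. The groups met at a single array, oleate array 4, and 7 of 8 palmitate arrays lay above every oleate array. The difference was -1.74 ± 0.19 (SE), or 3.35-fold (limma adjusted p = 4.83e-08). Control stood at 12.86 ± 0.20 (SD, n = 7), 0.38 above the oleate mean, a difference that did not pass (limma adjusted p rounds to 1), and palmitate was 1.36 above control (adjusted p = 7.78e-06).

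Dnajb9, a co-chaperone of BiP, gave the lowest difference of the named genes. It lay at 5.85 to 10.84 (median 7.94) with oleate and at 9.80 to 11.86 (median 10.86) with palmitate, a difference of -2.91 ± 0.53 (limma adjusted p = 0.000332). Oleate array 4 held the 10.84, and without the arrays numbered 4 the highest oleate level was 8.23 and the groups did not overlap. Manf, a protein secreted on stress of the endoplasmic reticulum, was at 7.58 to 10.75 (median 8.18) with oleate and 9.89 to 11.77 (median 10.51) with palmitate, a difference of -2.17 ± 0.32 (limma adjusted p = 1.62e-05). For Creld2, another resident of this compartment that rises on stress and did not pass with median scaling, the ranges were 5.83 to 8.40 (median 7.11) and 8.15 to 9.79 (median 8.43), with a difference of -1.48 ± 0.28 (limma adjusted p = 0.000451). The other called members were the chaperone Hsp90b1, the co-chaperones Dnajb11, Dnajc3 and Sdf2l1, the folding factors Pdia3 and Calr, the transcription factor Xbp1, and Syvn1 and Herpud1, which take part in the removal of misfolded proteins.

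The ATF4 and CHOP response was the list with the most members past the test. Of 23 tested genes 17 were lower with oleate and 0 higher, beside 3.31% and 1.16% of all genes, with a list median of -1.27. The 6 others lay between -0.75 and 0.06. With median scaling 14 members passed. Against control 13 members were higher with palmitate, beside 5.3% of all genes, and 0 changed with oleate, beside 0.571%.

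Among its transcription factors, Ddit3 (CHOP, linked to cell death under lasting stress) lay at 9.92 to 11.37 (median 10.25) with oleate and at 11.33 to 12.99 (median 12.33) with palmitate. Of the palmitate arrays 7 were above every oleate array, and the difference was -1.81 ± 0.29, or 3.51-fold (limma adjusted p = 4e-05). Atf3, a repressor and activator that many stresses induce, ranged from 6.75 to 8.56 (median 7.87) with oleate and from 8.87 to 11.29 (median 10.04) with palmitate, with no overlap. The difference was -2.32 ± 0.40 (limma adjusted p = 0.000156). Atf4 itself was at 9.88 to 12.42 (median 10.99) with oleate and 11.89 to 13.13 (median 12.50) with palmitate, a difference of -1.44 ± 0.28 (limma adjusted p = 0.000797) that did not pass with median scaling.

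Of the effectors, Ppp1r15a, the phosphatase subunit that removes the block on eIF2, lay at 7.91 to 10.03 (median 8.17) with oleate and at 10.07 to 11.42 (median 10.72) with palmitate. All 8 palmitate arrays were above all 8 oleate arrays, with a difference of -2.34 ± 0.30, or 5.06-fold (limma adjusted p = 1.41e-06). Slc3a2, the shared heavy chain of several amino acid transporters, was at 9.71 to 10.84 (median 10.09) and 11.26 to 12.63 (median 12.18), again without overlap (difference -1.93 ± 0.24, limma adjusted p = 9.19e-07). Trib3, a pseudokinase known to bind AKT and ATF4, was detected in 4 of 8 oleate and all 8 palmitate arrays, at 6.11 to 8.14 (median 7.14) and 7.91 to 9.08 (median 8.66), a difference of -1.70 ± 0.29 (limma adjusted p = 0.000112). Gdf15, a stress hormone that the heart can secrete, differed by -1.85 ± 0.29, with 7 of 8 palmitate arrays above every oleate array (limma adjusted p = 3.41e-05). Further called members were Asns and Psph of amino acid synthesis and the transporters Slc7a1, Slc7a5 and Slc6a9.

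Aminoacyl-tRNA synthetases, which charge transfer RNAs with their amino acids and are known targets of ATF4, moved in the same direction. Of 16 tested members 11 were lower with oleate and 0 higher, beside 3.31% and 1.16% of all genes. The list median was -0.74, and 3 passed with median scaling. Yars1, the enzyme for tyrosine, lay at 8.01 to 9.02 (median 8.51) with oleate and at 9.08 to 10.43 (median 9.65) with palmitate. The groups did not overlap, and the difference was -1.16 ± 0.20, or 2.24-fold (limma adjusted p = 0.000111). Cars1, Wars1 and Aars1, the enzymes for cysteine, tryptophan and alanine, had differences of -1.28, -0.98 and -0.95 in turn, and in each 7 of 8 palmitate arrays lay above every oleate array. Yars1 and Aars1 did not pass with median scaling.

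**Figure D2:**
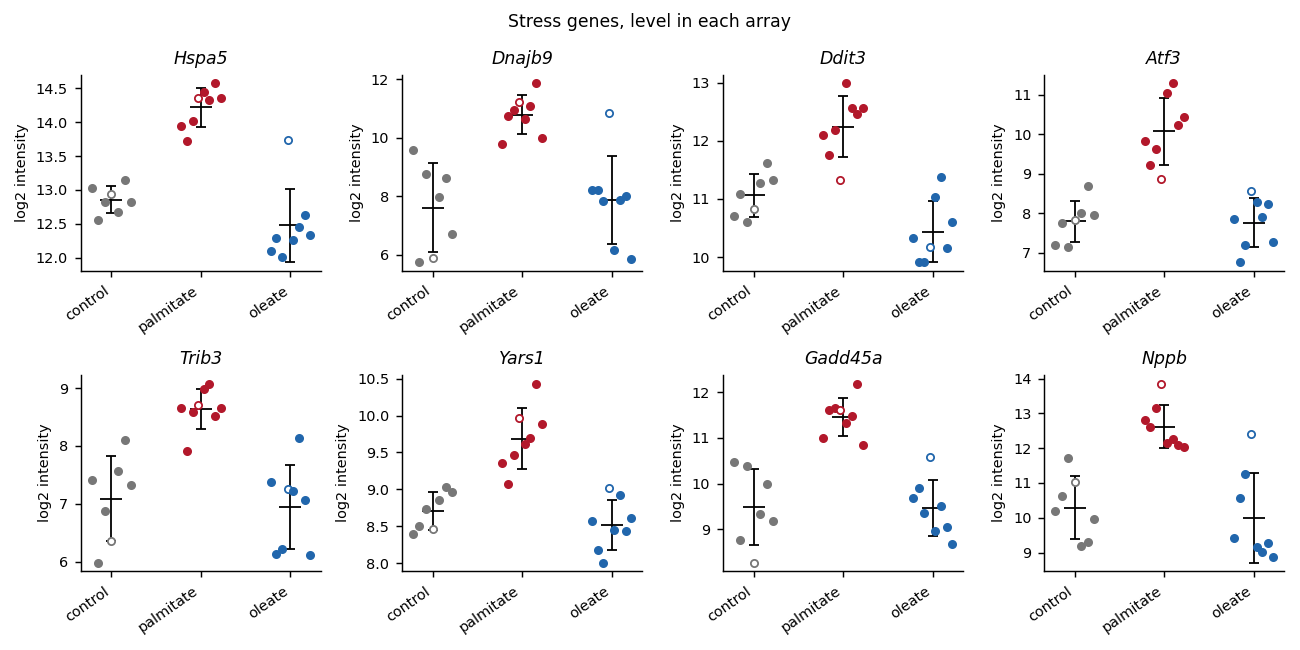
Normalized log2 intensity (vertical axis) of 8 stress genes in each control, palmitate and oleate array, with group mean and SD as bars and the arrays numbered 4 as open circles. The palmitate mean lies above the oleate mean in every panel, with oleate array 4 at 13.73 for Hspa5 and 10.84 for Dnajb9, close to the palmitate arrays.

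Binding letters known from such genes were looked for in promoter windows of RefSeq (GRCr8), from 250 bases before to 50 after each start, which 5183 of the tested genes had. The endoplasmic reticulum stress element was searched on both strands as CCAAT, 9 bases of any kind and CCACG. It stood in 21 of all 27457 windows (0.0765%) and in 10 of the tested genes (0.193%). Of those 10 genes 8 were among the 195 genes with a window that were lower with oleate (4.1%), namely Calr, Creld2, Dnajc3, Hnrnpa3, Hsp90b1, Hspa5, Xbp1 and Zfand2a. The other two, Canx and Foxd4, differed by -0.39 and 0.38 and did not pass. The 180 bases before the start are shown for the chaperones Hspa5 and Hsp90b1, the transcription factor Xbp1 and the stress gene Zfand2a, 5′ to 3′ on the gene's strand, with matches in capitals. A match on the opposite strand reads CGTGG first. The windows are Hspa5 chr3:38452836-38453015 (plus strand), Hsp90b1 chr7:23012294-23012473 (minus), Xbp1 chr14:84604443-84604622 (plus) and Zfand2a chr12:20275270-20275449 (plus).
Hspa5: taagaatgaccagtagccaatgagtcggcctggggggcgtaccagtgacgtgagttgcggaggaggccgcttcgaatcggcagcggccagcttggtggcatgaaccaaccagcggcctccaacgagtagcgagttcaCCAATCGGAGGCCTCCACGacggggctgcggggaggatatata
Hsp90b1: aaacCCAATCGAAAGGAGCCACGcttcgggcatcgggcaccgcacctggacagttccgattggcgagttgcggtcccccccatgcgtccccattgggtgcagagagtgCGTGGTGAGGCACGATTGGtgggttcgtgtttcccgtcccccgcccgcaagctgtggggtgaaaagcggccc
Xbp1: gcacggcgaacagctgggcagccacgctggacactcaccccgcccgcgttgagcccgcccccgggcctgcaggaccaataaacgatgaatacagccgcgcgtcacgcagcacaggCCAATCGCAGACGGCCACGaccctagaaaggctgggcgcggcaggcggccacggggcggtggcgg
Zfand2a: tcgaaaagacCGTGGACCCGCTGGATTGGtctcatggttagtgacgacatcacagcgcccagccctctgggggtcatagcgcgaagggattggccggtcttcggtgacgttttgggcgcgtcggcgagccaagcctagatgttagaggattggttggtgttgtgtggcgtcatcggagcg

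The match of Hspa5 began 43 bases before the start, that of Xbp1 65, and that of Zfand2a 170, while Hsp90b1 held 2, at 176 and 72. The C/EBP-ATF response element, to which ATF4 binds together with a C/EBP partner, was searched as TGATGNAA on both strands. It stood in 1048 of all windows (3.82%), in 110 of the tested genes (2.12%) and in 16 of the 195 lower with oleate (8.21%). Of the 61 genes with a window that were higher with oleate 2 held it (3.28%), Clasp2 and Pik3ip1. Among the called aminoacyl-tRNA synthetases with a window 7 of 10 held it, and among called members of the ATF4 and CHOP list 3 of 15, namely Nupr1, Slc7a1 and Trib3. In 9 of the 16 genes the match lay within the 60 bases before the start. In the others it lay farther away, up to 184 bases before, or after the start. The 60 bases are shown for 5 of the 9, the regulator Trib3, the transporter Slc7a1 and 3 synthetases, picked because their match lies in this stretch. They are Trib3 chr3:161275534-161275593 (minus strand), Slc7a1 chr12:11664428-11664487 (plus), Iars1 chr17:15193653-15193712 (minus), Mars1 chr7:65023754-65023813 (minus) and Tars1 chr2:62114803-62114862 (minus).
Trib3: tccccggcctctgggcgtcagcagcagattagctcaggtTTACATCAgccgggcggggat
Slc7a1: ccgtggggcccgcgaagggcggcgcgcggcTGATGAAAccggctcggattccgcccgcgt
Iars1: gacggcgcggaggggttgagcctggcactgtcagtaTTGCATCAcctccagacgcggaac
Mars1: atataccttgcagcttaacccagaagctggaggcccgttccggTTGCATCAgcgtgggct
Tars1: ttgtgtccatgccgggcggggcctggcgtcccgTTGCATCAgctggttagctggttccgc

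In these 5 genes the match began 17 to 30 bases before the start. In Slc7a1 it reads TGATGAAA on the gene's strand, and in the 4 other genes it lies on the opposite strand. A match describes the letters of the window and not binding in these cells.

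Zfand2a, which encodes a protein linked to the proteasome and known from arsenite stress, was one of the genes that separated the groups most. It lay at 8.43 to 10.74 (median 9.05) with oleate and at 11.28 to 12.72 (median 11.91) with palmitate, without overlap. It was 6.51-fold lower with oleate (difference -2.70 ± 0.30, limma adjusted p = 4.83e-08), and control lay at 9.17 ± 0.23 (SD, n = 7). Of the heat shock list it belongs to, 2 of 21 tested members passed, both lower with oleate (beside 3.31% of all genes), with a list median of -0.15. That count was 4 without oleate array 4 and 1 without palmitate array 7. Otud1, a deubiquitinase, was at 8.62 to 11.56 (median 9.60) with oleate and 11.29 to 13.18 (median 12.25) with palmitate, a difference of -2.62 ± 0.45 (limma adjusted p = 0.000112). It was the 1 called member of 21 tested genes of autophagy and protein breakdown, beside 3.31% of all genes lower. Tmem39a, a membrane protein, showed no overlap between the groups, at 5.93 to 8.54 with oleate and 8.70 to 10.52 with palmitate (difference -2.07 ± 0.29, limma adjusted p = 5.04e-06).

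Immediate early genes and AP-1 factors, transcription factors that stress and growth kinases switch on rapidly, were also lower with oleate. Of 23 tested members 12 passed, all lower, beside 3.31% of all genes, with a list median of -0.93, and 6 passed with median scaling. Fosl1, an AP-1 subunit, was at 7.06 to 9.78 (median 7.79) with oleate and 8.99 to 11.18 (median 10.43) with palmitate. Its difference was -2.35 ± 0.36 (limma adjusted p = 1.91e-05), and 7 of 8 palmitate arrays were above every oleate array. Myc, a transcription factor of growth, lay at 8.99 to 10.90 (median 9.74) and 10.93 to 12.53 (median 11.63), with no overlap and a difference of -1.78 ± 0.28 (limma adjusted p = 3.39e-05). Klf6, a zinc finger factor that did not pass with median scaling, differed by -1.63 ± 0.30 (limma adjusted p = 0.000338), with 5 of 8 palmitate arrays above all oleate arrays. Jun, Egr1, Nr4a3, Ier2, Klf4, Btg2, Zfp36 and Mafk passed as well. Of 16 MAP kinase phosphatases and regulators 2 passed, Dusp8 and Spry2, both lower with oleate, beside 3.31% of all genes. That count was 4 without oleate array 8 or palmitate array 2 and 1 without palmitate array 7.

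Genes of DNA damage and cell death signalling followed. Of 24 tested members 9 were lower with oleate and 0 higher, beside 3.31% and 1.16% of all genes. The list median was -0.38, and 4 passed with median scaling. Gadd45a, a sensor of stress and DNA damage, was at 8.67 to 10.58 (median 9.44) with oleate and 10.85 to 12.18 (median 11.54) with palmitate. All palmitate arrays lay above all oleate arrays, and the difference was -1.995 ± 0.28, or 3.99-fold (limma adjusted p = 5.04e-06). Its relative Gadd45g differed by -1.68 ± 0.35 (limma adjusted p = 0.00156), with 5 palmitate arrays above the oleate range, and did not pass with median scaling. Plk2, a stress-inducible kinase, was detected in 0 of 8 oleate and 7 of 8 palmitate arrays, at 5.94 ± 0.15 and 7.74 ± 0.83 (SD, n = 8), which makes it at least 1.71-fold lower with oleate (limma adjusted p = 0.000136). For this bound the oleate level in each array was raised to the lowest level of a detected probe there. Tnfrsf12a, the receptor of the cytokine TWEAK, differed by -1.66 ± 0.33 (limma adjusted p = 0.00103). The Bcl2 relatives Bax and Mcl1 lay at 0.01 and -0.61 and did not pass.

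Of 15 natriuretic peptide and hypertrophy genes 5 were lower with oleate and 0 higher, beside 3.31% and 1.16% of all genes. The list median was -0.40, and 3 passed with median scaling. Nppb, the precursor of the hormone BNP that strained heart muscle releases, was at 8.88 to 12.42 (median 9.35) with oleate and 12.03 to 13.85 (median 12.43) with palmitate. Its difference was -2.62 ± 0.46, or 6.15-fold (limma adjusted p = 0.000164), and 4 palmitate arrays lay above every oleate array. Without the arrays numbered 4 the highest oleate level was 11.25, below every palmitate array. Abra, an actin-binding protein of striated muscle, was at 9.16 to 11.26 (median 10.06) and 11.19 to 12.42 (median 11.99), with a difference of -1.88 ± 0.28 (limma adjusted p = 1.62e-05). Rcan1, a regulator of the phosphatase calcineurin, differed by -0.97 ± 0.15 (limma adjusted p = 3.27e-05) and was lost with median scaling, and Ankrd1, a stretch-responsive nuclear factor, and Gdf15 passed as well. Nppa, Myh6 and Myh7 did not, at -0.28, -0.03 and -0.01.

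The antioxidant response was lower with oleate in a few members. Of 28 tested targets of the factor NRF2 4 passed, all lower with oleate (beside 3.31% of all genes), with a list median of -0.22. With median scaling 1 passed, and without oleate array 4 there were 8. Osgin1, a growth inhibitor that oxidative stress induces, lay at 8.09 to 9.89 (median 8.89) with oleate and at 9.94 to 11.25 (median 10.56) with palmitate, without overlap. Its difference was -1.76 ± 0.33, or 3.38-fold (limma adjusted p = 0.000451). Gclc and Gclm, the subunits of the first enzyme of glutathione synthesis, differed by -1.68 ± 0.42 and -0.67 ± 0.20 (limma adjusted p = 0.0104 and 0.0386), and the thioredoxin reductase Txnrd1 by -1.47 ± 0.31 (limma adjusted p = 0.00209). These last 3 did not pass with median scaling. Gclm also missed the threshold when any of 11 arrays was left out (limma adjusted p = 0.0535 to 0.117), all but oleate array 4 and palmitate arrays 1, 2, 6 and 8.

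A kinase, a chemokine and a DNA-binding protein were also among the lowest differences. Sgk1, a kinase of ion transport and survival close to AKT, was at 5.68 to 8.27 (median 7.60) with oleate and 8.33 to 10.28 (median 9.43) with palmitate, without overlap (difference -2.04 ± 0.35, limma adjusted p = 0.000112). Ccl20, a chemokine, lay at 6.92 to 9.85 (median 8.58) and 9.001 to 11.83 (median 10.58), with 7 palmitate arrays above every oleate array (difference -2.12 ± 0.46, limma adjusted p = 0.00247). It and Birc3 were the 2 called of 20 tested NF-kB targets and chemokines, beside 3.31% of all genes lower, a list with a median of -0.31. Of that list 1 passed when any of 8 arrays was left out (oleate 1, 2, 3 or 7, palmitate 5, 6, 7 or 8). Nabp1, which binds single-stranded DNA, differed by -1.94 ± 0.53 (limma adjusted p = 0.0204) and was detected in 3 oleate arrays. Ccl20 and Nabp1 did not pass with median scaling, and Nabp1 did not pass without oleate array 5 or 8 or palmitate array 4 or 7 (limma adjusted p = 0.0523 to 0.0683). The clock repressor Nfil3 was the 1 called member of 12 clock genes, lower with oleate, beside 3.31% of all genes.

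Cholesterol synthesis was the list with the most members higher with oleate. Of 19 tested members 6 passed, all higher, against 1.16% of all genes in that direction, with a list median of 0.64. With median scaling 2 passed. Against control 0 members passed with oleate, and with palmitate 3 were lower and 1 higher, beside 5.76% and 5.3% of all genes.

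Hmgcs1, which makes the HMG-CoA that enters the pathway, lay at 10.51 to 13.53 (median 12.70) with oleate and at 10.69 to 11.63 (median 11.16) with palmitate. Of the oleate arrays 7 were above every palmitate array and 1, array 4, was below them all. The difference was 1.29 ± 0.32, or 2.44-fold (limma adjusted p = 0.00846), and 1.499 ± 0.23 without the arrays numbered 4. Idi1, an isomerase of the isoprenoid steps, was at 8.15 to 9.65 (median 8.86) and 6.79 to 8.39 (median 7.81), with a difference of 1.14 ± 0.33 (limma adjusted p = 0.0326). It missed the threshold without oleate array 1, 2, 3 or 7 or palmitate array 5, 6 or 8 (limma adjusted p = 0.0529 to 0.0874). Sc5d and Dhcr7, late steps of sterol synthesis, were higher by 1.11 ± 0.26 and 1.23 ± 0.26 (limma adjusted p = 0.00443 and 0.00168). Dhcr7 was detected in 4 oleate and 0 palmitate arrays, at 7.10 ± 0.73 and 5.88 ± 0.30 (SD, n = 8), so that it was at least 1.19-fold higher with oleate. Acat2 passed as well. Insig1, which holds back the activator of this pathway, lay at 7.66 to 12.76 with oleate and 9.62 to 12.52 with palmitate, and its difference of -0.64 (95% interval -1.70 to 0.42) did not pass (limma adjusted p = 0.643). It passed with the replicate number as a block within the compared groups (limma adjusted p = 0.0477).

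Other genes of the higher group act on membranes, kinases and receptors. Lpcat1, which rebuilds phosphatidylcholine by adding an acyl chain, was at 6.57 to 8.49 (median 7.97) with oleate and 5.97 to 6.71 (median 6.31) with palmitate. Of the oleate arrays 7 lay above every palmitate array, and the difference was 1.57 ± 0.25 (limma adjusted p = 3.35e-05). It was detected in 7 oleate and 2 palmitate arrays. Control lay at 7.74 ± 0.54 (SD, n = 7), and palmitate was below it by 1.42 (limma adjusted p = 0.000179). Pik3ip1, an inhibitor of PI3-kinase, was at 7.86 to 9.26 (median 8.80) and 6.396 to 8.30 (median 7.23), with a difference of 1.41 ± 0.33 (limma adjusted p = 0.00492). Rxrg, a retinoid X receptor of the family that pairs with PPARs, was higher by 1.11 ± 0.26 (limma adjusted p = 0.00476), with 7 oleate arrays above every palmitate array.

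Gpr22, an orphan receptor of the heart, showed the largest difference of the higher genes together with the widest spread. It lay at 6.45 to 10.44 (median 9.77) with oleate and at 5.87 to 9.44 (median 8.06) with palmitate, and 4 oleate arrays were above every palmitate array. The difference was 1.76 ± 0.54 (limma adjusted p = 0.0475), and control was at 9.46 ± 0.44 (SD, n = 7). The call was lost when any of 11 arrays was left out (limma adjusted p = 0.0509 to 0.136), all but oleate arrays 4 and 6 and palmitate arrays 1, 2 and 3. Adap2, a regulator of ARF GTPases, Ptp4a3, a phosphatase, and Lyplal1, a relative of the lysophospholipases, were higher by 1.27, 1.24 and 1.12. Lyplal1 did not pass without oleate array 1, 2, 3 or 5 or palmitate array 5, 6 or 7 (limma adjusted p = 0.0503 to 0.0835). Tmem50b, a membrane protein, was higher by 1.16 ± 0.26, with 7 oleate arrays above every palmitate array. Gpr22, Pik3ip1, Rxrg, Idi1, Sc5d, Tmem50b, Adap2, Ptp4a3 and Lyplal1 did not pass with median scaling.

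**Figure D3:**
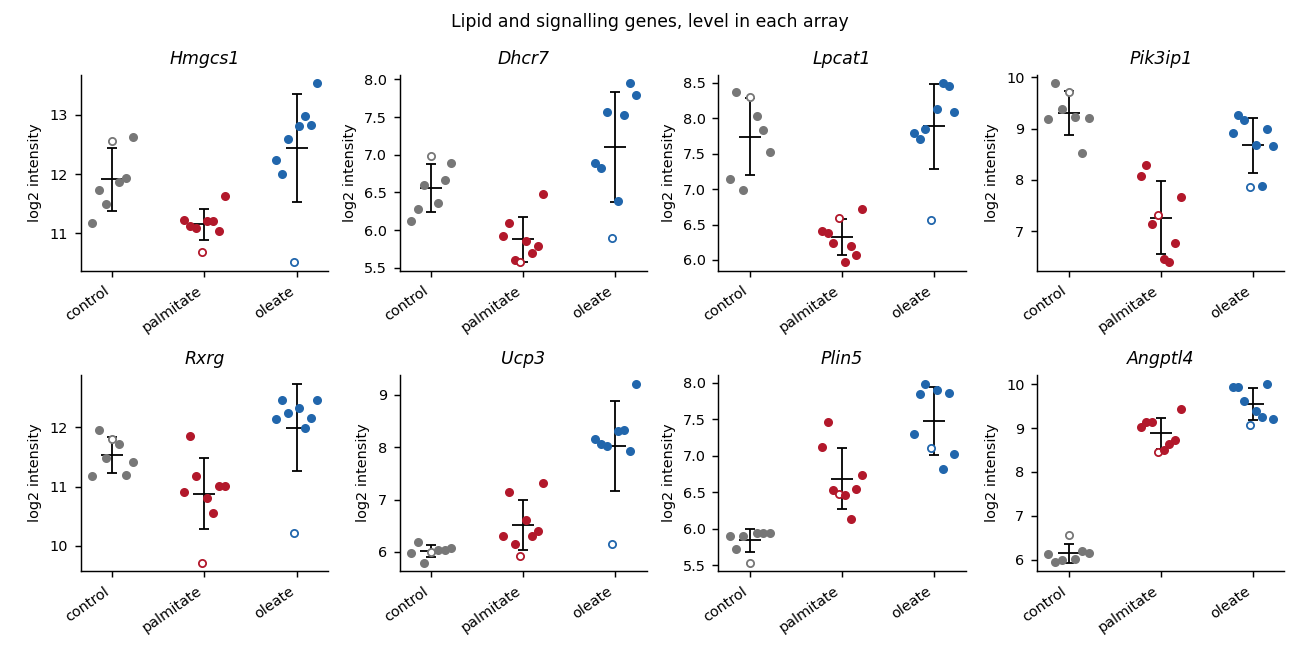
Normalized log2 intensity (vertical axis) of 8 lipid and signalling genes in each control, palmitate and oleate array, with group mean and SD as bars and the arrays numbered 4 as open circles. Lpcat1 and Pik3ip1 with oleate lie near control and above palmitate, and Ucp3, Plin5 and Angptl4 lie above control with oleate.

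Many targets of PPAR rose under both fatty acids, and 3 differed between them. Against control 18 of 32 tested targets were higher with oleate, beside 0.515% of all genes, and 18 with palmitate, beside 5.3%. In the direct comparison the 3 that passed, Ucp3 and Plin5 among them, were all higher with oleate, beside 1.16% of all genes. The list median was 0.33. Ucp3, an uncoupling protein of muscle mitochondria, lay at 6.15 to 9.21 (median 8.11) with oleate and at 5.92 to 7.31 (median 6.35) with palmitate. It was detected in 7 oleate and 2 palmitate arrays and was higher by 1.499 ± 0.26 (limma adjusted p = 0.000164). Plin5, which ties lipid droplets to mitochondria, was at 6.82 to 7.99 (median 7.57) and 6.13 to 7.47 (median 6.54), higher by 0.80 ± 0.18 (limma adjusted p = 0.00389). Plin5 did not pass with median scaling, and the list's count was 9 without oleate array 4 (7 higher and 2 lower with oleate), 6 without palmitate array 2 (5 and 1) and 8 without the arrays numbered 4 (6 and 2).

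Targets with a strong rise over control did not pass the test between oleate and palmitate. Pdk4, the kinase that shuts down pyruvate oxidation, was at 10.43 to 12.52 with oleate and 9.94 to 12.33 with palmitate, against a control mean of 7.10. The difference was 0.45 (95% interval -0.45 to 1.35, limma adjusted p = 0.731). Acot1, a cytosolic thioesterase, was at 8.55 to 10.07 and 7.86 to 10.46, with a difference of -0.37 (95% interval -1.15 to 0.40, limma adjusted p = 0.752). For Angptl4, a secreted inhibitor of lipoprotein lipase, the levels were 9.07 to 10.01 and 8.46 to 9.43, and the difference of 0.67 (95% interval 0.19 to 1.15) missed the threshold (limma adjusted p = 0.0987). Its other probe gave 0.39. Without the arrays numbered 4 Angptl4 passed (adjusted p = 0.0425). With the replicate number as a block within the compared groups Pdk4 and Angptl4 passed (limma adjusted p = 0.0164 and 0.00673). These intervals reach beyond a 2-fold difference in Pdk4, Acot1 and Angptl4 and do not show equal action.

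Plin2, the coat protein of lipid droplets, lay at 9.46 to 12.65 (median 10.11) with oleate and at 10.05 to 13.00 (median 11.52) with palmitate. The difference of -1.16 (95% interval -2.003 to -0.31) did not pass (limma adjusted p = 0.111), though it did without the arrays numbered 4, at -1.27 (adjusted p = 0.00162), and without palmitate array 2 alone, at -1.38 (adjusted p = 0.0388). Cpt1a, which admits fatty acids to mitochondria, Acot2, a mitochondrial thioesterase, and Ucp2 gave 0.70, -0.52 and 0.48 and did not pass, and of these Acot2 passed without the arrays numbered 4 at -0.71 (adjusted p = 0.0423). With the replicate number as a block within the compared groups Plin2, Cpt1a and Ucp2 passed (limma adjusted p = 0.00081, 0.0436 and 0.00448).

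In 8 lists no gene passed, with values as follows. Medians were -0.01 for 19 genes of fatty acid uptake, 0.28 for 25 of mitochondrial beta-oxidation and 0.33 for 15 of peroxisomal metabolism. They were 0.17 for 17 genes of sphingolipids, 0.02 for 30 of glycolysis and 0.16 for 21 of the citric acid cycle. The 33 genes of the respiratory chain had a median of 0.12 and lay between -0.06 and 0.31. Hypoxia genes, 13 in number, had a median of -0.25. Without the arrays numbered 4, 3 beta-oxidation, 1 peroxisomal and 1 citric acid cycle gene passed higher with oleate, and 2 sphingolipid, 1 uptake and 1 hypoxia gene lower, with 0 of glycolysis and of the respiratory chain. Without oleate array 4 alone 3 of beta-oxidation, 2 peroxisomal, 2 sphingolipid, 2 hypoxia, 1 uptake and 1 citric acid cycle gene passed. Without palmitate array 2 alone 2 of beta-oxidation and 1 of sphingolipids did, without palmitate array 1 alone 1 and 1, and without oleate array 8 or palmitate array 8 alone 1 of beta-oxidation.

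Of 22 sarcomere genes Smyd1, a methyltransferase of muscle, was higher with oleate, beside 1.16% of all genes. Mid1ip1, an activator of fatty acid synthesis, was the 1 called of 8 genes of desaturation and synthesis. It was lower with oleate, beside 3.31% of all genes. Among markers of other cells 0 of 8 fibroblast, 0 of 2 endothelial and 0 of 3 macrophage markers passed, and without oleate array 4 there were 0, 1 and 1. The fibroblast sum ran from 3020 to 8530 with oleate and 2300 to 6700 with palmitate, the endothelial sum from 158 to 2370 and 219 to 3130, and the macrophage sum from 160 to 338 and 226 to 380, all linear intensities. Defining markers of endothelium (Cdh5, Vwf, Tek), macrophages (Ptprc, Adgre1, C1qa), fibroblasts (Col1a1, Pdgfra) and adipocytes (Adipoq, Fabp4, Plin1) were on the array and did not reach the detection filter. The 4 tested members of the smooth muscle and pericyte list were Smtn, Cspg4, Abcc9 and Des. Of these Smtn, a cytoskeletal protein, and the channel subunit Abcc9 passed, both higher with oleate, beside 1.16% of all genes. Smtn lay at 6.53 to 8.46 with oleate and 5.82 to 8.15 with palmitate. Smtn did not pass with median scaling, 1 of the 4 passed without oleate array 8, and 3 did without the arrays numbered 4, all higher with oleate, with a list median of 0.93. That list's sum ran from 33200 to 46300 with oleate and from 34000 to 54700 with palmitate. With Tagln, Myh11 and Cnn1 below the filter the sum is no measure of smooth muscle cells, and the list's part in the result was not tested. In these bulk samples fewer cells of a type and less RNA per cell cannot be told apart.

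Linoleate and stearate, an unsaturated and a saturated fatty acid measured in 15 arrays that the oleate and palmitate comparison does not use, show how the called genes behaved elsewhere. The stearate arrays detected 3090 to 7220 probes, stearate array 8 the fewest of the whole series, and the linoleate arrays 4503 to 6891. Dim genes are thus measured less well in some stearate arrays. Between linoleate and stearate 290 genes passed (4.04%), 185 higher (2.58%) and 105 lower with linoleate (1.46%). Stearate array 4 stood apart, below all other stearate arrays in 29 of the 59 named genes and above them in 8. Pdk4 was at 7.48 there and at 11.18 to 12.91 in the other stearate arrays. Plin2 was at 8.79 there, against 11.63 to 12.62, and Osgin1 at 7.95, against 10.18 to 11.25. Linoleate array 4 was the highest linoleate array for 12 of 13 hypoxia genes, with Adm at 11.75 against 5.92 to 8.44 in the others. Its Hspa5 was at 13.72, against 12.20 to 13.25 in the other linoleate arrays, and its Nppb at 13.05, against 9.205 to 11.33. These genes were picked for this description after their values were seen. Without stearate array 4 alone 450 genes passed. Without the arrays numbered 4 of every group, added after the data were seen, 684 did (9.52%), 457 higher (6.36%) and 227 lower (3.16%). With median scaling 84 genes passed, 78 higher and 6 lower, and the median over all genes moved from 0.04 to 0.298. Of the 321 genes called between oleate and palmitate 281 had the same sign here (87.5%, beside 59.9% of all tested genes), 207 of 238 lower (44.3% of all genes) and 74 of 83 higher (55.7%). Past the test in both pairs were 84 genes, 26.2% of the 321 and 29% of the 290, all in the same direction, 52 lower and 32 higher with the unsaturated member. Without the arrays numbered 4 that overlap was 267 genes, and with median scaling it was 8. The 238 lower genes had a median of -0.999 in the first pair and -0.44 in the second, and the 83 higher genes 0.90 and 0.58.

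**Figure D4:**
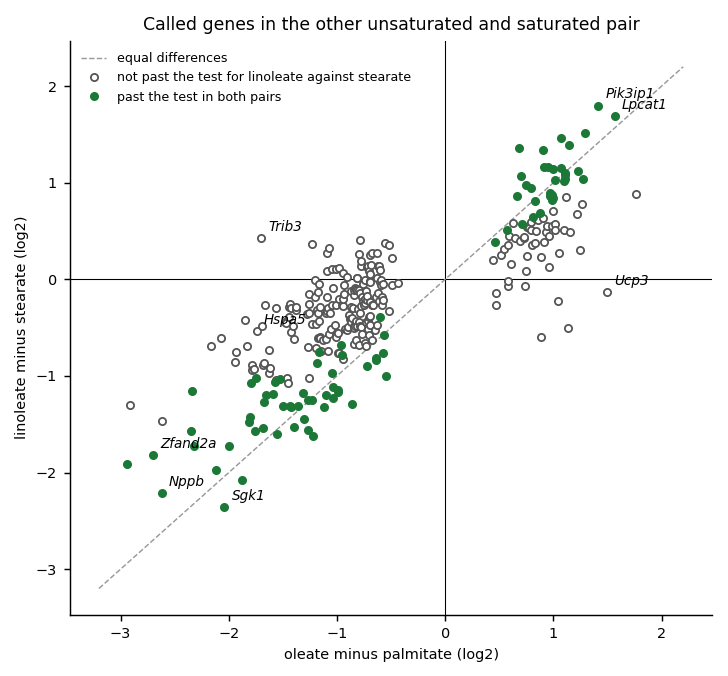
Difference between linoleate and stearate (vertical axis, log2) against that between oleate and palmitate (horizontal axis, log2) for the 321 genes called between oleate and palmitate, with the 84 genes past the test in both pairs in green and a dashed line of equal differences. Most points lie in the quadrants of equal sign, Lpcat1 and Sgk1 near the line and Trib3 and Ucp3 away from it.

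In the second pair the lists had the following counts, beside 2.58% of all genes higher and 1.46% lower, and they were not tested against each other. Of the cholesterol genes 8 of 19 were higher with linoleate than with stearate, with a median of 0.84. Hmgcs1 was higher by 1.51 there, Lpcat1 by 1.69, Pik3ip1 by 1.80 and Rxrg by 1.03 (limma adjusted p = 0.00345, 3.5e-05, 0.000891 and 0.0162). Of the natriuretic and hypertrophy genes 5 of 15 were lower, with Nppb at -2.21 and Abra at -2.08 (limma adjusted p = 0.00297 and 1.29e-05), and of the immediate early genes 6 of 23. Sgk1 was at -2.35 and Gadd45a at -1.73 (limma adjusted p = 3.78e-05 and 0.000192). Of the endoplasmic reticulum genes 0 of 23 passed, with a median of -0.08, and 1 of 16 aminoacyl-tRNA synthetases did, lower with linoleate. Of the ATF4 and CHOP list 5 of 23 passed, all lower, among them Ddit3 at -1.48 and Atf3 at -1.72 (limma adjusted p = 0.00185 and 0.00869), while Atf4 at -0.39 did not (adjusted p = 0.526). With the arrays numbered 4 left out the endoplasmic reticulum list had 6 members lower with linoleate, among them Hspa5 at -0.80 (limma adjusted p = 0.000641), which was at -0.54 and not past the test in all arrays (adjusted p = 0.129). The ATF4 and CHOP list then had 8 lower and the aminoacyl-tRNA synthetases 3, the cholesterol genes had 10 higher, the immediate early genes 11 lower and 1 higher, and the natriuretic and hypertrophy genes 7 lower and 1 higher. Nppb was then at -2.86, Abra at -2.54 and Hmgcs1 at 1.82.

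The difference between the pairs was itself tested for each gene. It passed for 15 genes (0.209%), 4 above 0 (0.0557%) and 11 below (0.153%), 580 being past an unadjusted p of 0.05. Trib3 stood at -1.70 in oleate minus palmitate and 0.43 in linoleate minus stearate, a difference between pairs of -2.12 ± 0.42 (limma adjusted p = 0.0224). Trib3 was detected in 3 stearate and 4 linoleate arrays. Hspa5 gave -1.20 ± 0.28 and Syvn1 -1.17 ± 0.25 (limma adjusted p = 0.0468 and 0.0398). Slc39a7, a zinc transporter of the endoplasmic reticulum, gave -1.40 ± 0.28 (limma adjusted p = 0.026), and Ucp3, detected in 1 stearate and 4 linoleate arrays, 1.63 ± 0.38 (limma adjusted p = 0.0468). This count rests on single arrays: it was 0 without oleate array 2, palmitate array 5 or palmitate array 7, 31 without oleate array 4, and 1 with median scaling. Of the 31 arrays of both pairs, 22 moved it by over 1.5 times when left out.

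Stearate, of the chain length of oleate and without its double bond, gives a further reference. These comparisons share arrays with the one between oleate and palmitate, so the values are set side by side. Between oleate and stearate 497 genes passed (6.92%), and between stearate and palmitate 300 (4.18%), 79 higher (1.1%) and 221 lower (3.08%) with stearate. These became 1024 (14.3%) and 386 (5.37%) without the arrays numbered 4. Oleate minus stearate was -2.85 for Nppb, -2.52 for Sgk1 and -1.93 for Gadd45a (limma adjusted p = 3.82e-05, 3.33e-06 and 7.98e-06), and stearate differed from palmitate by 0.23, 0.48 and -0.07 without passing. The cholesterol gene Hmgcs1 and Lpcat1 were higher with oleate than with stearate by 1.47 and 1.94 (limma adjusted p = 0.00194 and 6.4e-07), with stearate at -0.18 and -0.38 from palmitate, neither past the test. Trib3 had the opposite arrangement: oleate was 0.26 from stearate (limma adjusted p = 0.649), and stearate was below palmitate, at -1.96 (limma adjusted p = 2.47e-05). Hspa5 lay between, with oleate at -0.91 from stearate and stearate at -0.84 from palmitate (limma adjusted p = 0.00179 and 0.00905). Over lists, the 23 endoplasmic reticulum genes had 4 lower in oleate against stearate (2.27% of all genes) and 6 lower in stearate against palmitate (3.08%). The 19 cholesterol genes had 9 higher in oleate against stearate (4.65%) and 0 changed in stearate against palmitate, and the 23 immediate early genes 11 lower and 0. Leaving out the arrays numbered 4, the endoplasmic reticulum genes had 7 lower and 1 higher in oleate against stearate, beside 4.4% and 9.86% of all genes, and 7 lower in stearate against palmitate, beside 4.15%. The cholesterol genes then had 10 higher and 0, and the immediate early genes 15 lower with 1 higher and 1 lower. Oleate minus stearate was then -3.44 for Nppb, -1.20 for Hspa5 and 0.12 for Trib3, and stearate minus palmitate 0.65, -0.70 and -1.85, with each of the 6 on the same side of the threshold as in all arrays.

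**Figure D5:**
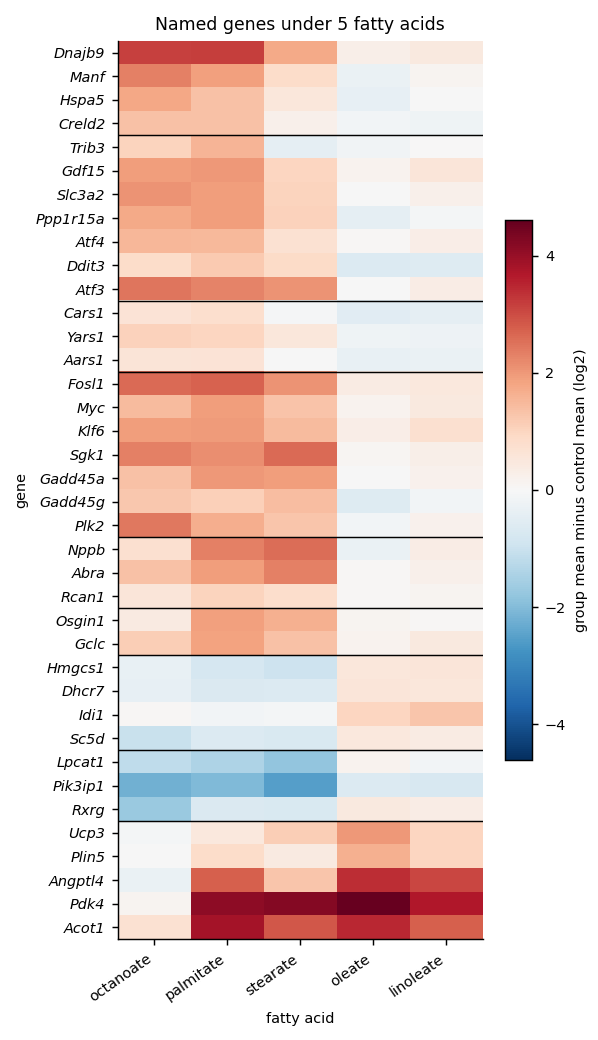
Group mean minus control mean (log2, colour) of 38 named genes under each of 5 fatty acids, in blocks from top to bottom of endoplasmic reticulum genes, the ATF4 and CHOP response, aminoacyl-tRNA synthetases, immediate early and damage genes, hypertrophy genes, antioxidant genes, cholesterol genes, membrane and signalling genes, and PPAR targets. The oleate and linoleate columns are near 0 in most stress blocks, where the palmitate and octanoate columns are positive. Mean levels with octanoate were 14.63 for Hspa5 and 11.02 for Nppb, and with palmitate 14.22 and 12.62. Pdk4 is high under all long-chain fatty acids.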

How the data were processed

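RNA was measured on Illumina rat bead arrays. The deposited table holds mean bead intensities without background subtraction or normalization between arrays, exported with BeadStudio 3 per the submitters' processing notes. Per the file headers a detection p-value stands beside each intensity. The authors' deposited value table holds quantile-normalized linear intensities on the evidence of its values and served as an alternative. Of 22517 probes 17288 were matched to RefSeq gene names (GRCr8), 5032 go by the name in the deposited table and 197 have no name.

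Intensities were corrected with limma 3.58.1 (R 4.3.3; normexp on detection p-values, offset 16), brought to equal quantiles and log2 transformed. Kept were the 7312 probes with detection p under 0.01 in at least 7 arrays, the brightest standing for its gene (7182 genes, 123 of them with more than 1 probe). Group means over 46 arrays were fitted with an intensity trend and tested two-sided with Benjamini-Hochberg adjustment at 0.05. The fit was run on simulated arrays with independent noise. They lack the shared deviations of same-numbered arrays, so they do not check the error rate in these data. Promoter letters and permutation tests used Python 3.11.15.

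Members and gene lists were chosen with earlier results of these data known. Named genes were the 15 largest rises and 15 largest falls past the test, up to 4 called members of each list with at least 3, and genes of fatty acid response and stress fixed by name (59 in all, placeholder symbols skipped). Scd did not pass the detection filter. Some members of the lists are counted but not reported here by name.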

Additional observations from a re-analysis of the deposited data

Results flagged for a closer look

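Each named gene was checked for a single array far from the others of its group, with Dixon's ratio against its critical value of 0.526 for 8 arrays. Chance sets apart about 1 in 20 such groups, and 17 of 118 were set apart, 15 of them by an array numbered 4. In oleate array 4 the genes otherwise higher with oleate lay low, Gpr22 at 6.45, Lpcat1 at 6.57, Ucp3 at 6.15, Tmem50b at 9.57 and Rxrg at 10.21, as did Ucp2, which did not pass the test, at 10.23. The nearest other oleate array was at 8.86 for Gpr22 and 7.71 for Lpcat1. In the same array the stress genes lay high, Otud1 at 11.56, Fosl1 at 9.78, Ppp1r15a at 10.03, Manf at 10.75, Nabp1 at 9.89, Hspa5 at 13.73, Gclm at 11.69 and Klf6 at 11.21. Palmitate array 4 stood low for Ucp2, at 10.09. Palmitate array 2 stood high for Smtn, at 8.15, and for Cpt1a, at 9.18.

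The difference between the pairs (oleate minus palmitate, less linoleate minus stearate) passed limma's test for 15 genes, and the 15 are not stable to single arrays, as stated above. Below 0 lay Trib3 at -2.12, Fndc3a at -1.87, Slc39a7 at -1.40, Lipogenin at -1.36, Mogs at -1.33, Hspa5 at -1.20, Syvn1 at -1.17, Ip6k2 at -1.17, Akap8 at -0.92, Pdia5 at -0.88 and Hnrnpa3 at -0.87. Above 0 lay Smpx at 0.77, Mturn at 0.94, Ucp3 at 1.63 and the iron hormone Hamp at 1.85. In Hamp the second pair carried the difference, with linoleate minus stearate at -2.15 (limma adjusted p = 2e-05) and oleate minus palmitate at -0.31 (adjusted p = 0.723). Pdia5 was detected in 0 stearate and 0 linoleate arrays, so its second difference was not measured above background. Lipogenin was detected in 0 stearate and 2 linoleate arrays, and Mogs in 1 stearate and 4 linoleate arrays.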

How the results depend on the processing

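No named gene changed sign under any alternative. Calls between oleate and palmitate numbered 321, and 78 with median scaling, 522 with the signal range as a covariate and 1136 with array weights. With the replicate number as a block they numbered 692, or 1204 within the compared groups alone. Within the compared groups and with no block they fell to 214, 46 higher and 168 lower, and with no detection filter to 220. They were 624 without the arrays numbered 4, 413 without numbers 4 and 7, and 229 to 698 with 1 array left out. For linoleate against stearate (290) the calls were 84 with median scaling, 777 with weights and 608 with the block. They were 119 with the block within the compared groups and 118 there without it. Without number 4 they were 684, without numbers 4 and 7 578, with no detection filter 173, and with 1 array left out 200 to 450. For the difference between pairs (15) they were 1 with median scaling, 6 with scaling over probes detected in every array, 0 with no detection filter, 60 with the block, 5 and 95 within the compared groups without and with it, 27 without number 4, 26 with the covariate, 61 with weights and 0 to 31. The overlap of 84 became 8 with median scaling, 52 with no detection filter, 185 with the block, 38 within the compared groups, 173 without numbers 4 and 7, 267 without number 4 and 365 with weights. Without number 4 oleate against stearate (497) gave 1024. Against control oleate (41) gave 13 with median scaling and 72 with the block, palmitate (795) 204 and 1640. Array measures changed sign without passing, the signal range to -0.286 without numbers 4 and 7 (exact permutation test, adjusted p = 0.864) and the detected probes to 13.8 at detection p under 0.05 (exact permutation test, adjusted p = 0.974). The cause of these shifts was not tested.

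Of the 59 named genes 51 passed the test in all arrays, and median scaling ended the call of 24 of these. It moved the median over all genes to -0.10 for oleate and -0.13 for palmitate against control. Leaving out 1 array at a time ended 40 calls, among 944 gene results that include the named genes not called in all arrays. The fit within the compared groups with no block ended 6 of the named calls. Scaling over probes detected in every array, the fit within groups with a block and the fit without arrays numbered 4 were added after the data were seen. By their labels same-numbered arrays share only a number. Oleate and palmitate gave r of 0.0708 to 0.877, over 0.1 in 7 of 8 cases, with a median of 0.603 beside -0.0839 for other numbers. Linoleate and stearate gave -0.228 to 0.651, with medians of 0.229 and -0.0678. Of the oleate arrays 6 of 8 correlated best with the palmitate array of their number. This is a hint from the data of a shared source, which the main test does not take into account. The block fitted within the compared groups brought 6 named genes past limma's test, Pdk4, Plin2, Angptl4, Cpt1a, Ucp2 and Insig1 (adjusted p = 0.00081 to 0.0477), the block over all groups Angptl4 alone (adjusted p = 0.0413), and neither ended a named call. Signal over background limits the dim genes: Dhcr7 was detected in 0 palmitate arrays and Plk2 in 0 oleate arrays.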

Other observations

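Letters of other known elements were counted in the same promoter windows, on both strands. The cyclic AMP response element, TGACGTCA, stood in 525 of all 27457 windows (1.91%), in 183 of 5183 tested genes (3.53%) and in 12 of the 195 genes lower with oleate (6.15%). Those 12 were Areg, Btg2, Ebpl, Ier2, Plk2, Ppp1r15a, Rap1b, Rcan1, Slc25a25, Tmem39a, Trmt61a and Tubb2a. Among the 61 genes with a window that were higher with oleate 1 held it, Mlf1. A sterol regulatory element, TCACNCCAC, stood in 57 of the tested genes (1.1%) and in 0 of the 5 called cholesterol genes with a window, which says only that these letters are not in these windows. The endoplasmic reticulum stress element stood in 0 of the 61 genes higher with oleate.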
